A study of Mus musculus with 10 samples.

Results

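Interferon-stimulated and IRF genes are the receptors for interferon, the transcription factors that act below them, and the antiviral and regulatory genes that interferon switches on. They were chosen by name, as 43 gene symbols, and 39 of these were found among the 13091 genes of the deposited tables. All 4 receptor genes, all 8 factor genes and 27 of 31 effector genes were found. *Ifit3*, *Oasl2*, *Usp18* and *Ifi44*, all of them effectors, were dropped by the rule and were not analysed here.

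The cells were neutrophils grown in culture from bone marrow progenitors of 129-SVEV mice. The progenitors had been immortalized with an estrogen-dependent HoxB8, a factor that holds them at an immature stage until estrogen is withdrawn, and the study's lines were each expanded from a single cell. Which lines were sequenced is not given in the sources used here beyond numbers in the labels. The vimentin positive group held 2 labelled biological replicates of wild-type cells and the vimentin negative group 3 of cells that the sample labels call a vimentin knockdown and that the study derived from knockout mice. The same replicate numbers are labelled for unstimulated cells and for cells given 1 hour with LPS, a bacterial cell wall lipid, at a labelled 25 ng. In all there were 10 libraries of polyA RNA in 4 groups. The value used for a gene is the authors' mean normalized count, a single number corrected for sequencing depth. It is identical in all 4 comparisons and names no library, so it is taken here as the mean of the 10 libraries. On that reading it mixes both genotypes and both treatments. It carries no spread between replicates, no library can be seen on its own, and the depth of each library is unknown. The remaining columns of the tables hold the authors' own comparisons of genotype and of LPS and were not used, so no difference between groups is given and no test was made. For the same reason the loss of vimentin in the vimentin negative libraries could not be checked from these values. Where 2 genes are set side by side below, the order is that of the mean, and whether neighbours in that order differ beyond the spread between replicates could not be tested.

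Type I interferons bind a receptor of the IFNAR1 and IFNAR2 chains, and interferon gamma binds one of the IFNGR1 and IFNGR2 chains. Janus kinases on these chains phosphorylate STAT proteins, and a complex that contains STAT2 and IRF9 binds a repeated GAAA element in the promoters of interferon-stimulated genes. Other interferon regulatory factors (IRFs) bind related elements, and some of them, such as IRF3 and IRF7, also drive the interferon genes themselves after a pathogen is sensed. In macrophages and dendritic cells LPS engages this route through TLR4 and its adaptor TRIF.

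The element was searched for in the RefSeq promoter windows of build GRCm38.p6, the equivalent of the mm10 build used for alignment, each running from 250 bases before to 50 bases after an annotated start. The letters searched were GAAANNGAA, where N is any base, on both strands. Stretches of 6 of the 12 members that hold it before the start are shown, to let the element and its spacing be seen. The sequences are in the direction of the gene, and capitals mark every base covered by a match. In *Ifit1*, *Rsad2* and *Stat2* the motif lies on the opposite strand, so that the capitals show its reverse complement.
Isg15 (chr4:156200861-156200911, minus strand): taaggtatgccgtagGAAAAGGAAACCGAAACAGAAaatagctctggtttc
Ifit1 (chr19:34640765-34640828, plus strand): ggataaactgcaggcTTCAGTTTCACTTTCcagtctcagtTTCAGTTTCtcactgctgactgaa
Oas3 (chr5:120777705-120777749, minus strand): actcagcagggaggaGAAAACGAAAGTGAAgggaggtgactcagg
Socs1 (chr16:10785590-10785634, minus strand): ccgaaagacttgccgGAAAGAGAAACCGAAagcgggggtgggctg
Rsad2 (chr12:26456548-26456586, minus strand): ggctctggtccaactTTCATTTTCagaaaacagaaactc
Stat2 (chr10:128270262-128270300, plus strand): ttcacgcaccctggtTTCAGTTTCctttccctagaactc

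Of the stretches shown, those of *Isg15* and *Ifit1* held 3 matches close together, and those of *Oas3* and *Socs1* 2 overlapping ones. Overlapping pairs were also found in *Bst2*, *Eif2ak2* and *Trim21*. Of the 39 members, 35 had a promoter window, and 16 of these (45.7%) held at least 1 match. Among all 9778 genes of the tables that had a window the share was 8.84%, and among all 32851 windows of the genome it was 8.56%, against 37.2% of the members' 43 windows. By class, 0 of 4 receptor genes, 2 of 8 factors (*Irf2* and *Stat2*) and 14 of 23 effectors held it. No difference between the classes was tested, and with so few receptors a count of 0 is no result about them. The 14 effectors were *Adar*, *Bst2*, *Ddx58*, *Eif2ak2*, *Ifih1*, *Ifit1*, *Ifitm2*, *Ifitm3*, *Isg15*, *Oas3*, *Rsad2*, *Socs1*, *Trim21* and *Trim25*. In *Ddx58*, *Eif2ak2*, *Ifitm3* and *Trim21* every match lay after the annotated start, so that 12 members remained when only the 250 bases before it were searched. There the share among the genes of the tables was 7.58%, against 34.3% of the members. The matching windows of *Adar*, *Ifitm2* and *Oas3* belong to annotated starts inside the gene, not to its outermost base. A match describes letters in a window and not a bound site, and no match says only that these letters are missing from that window.

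**Figure D1:**
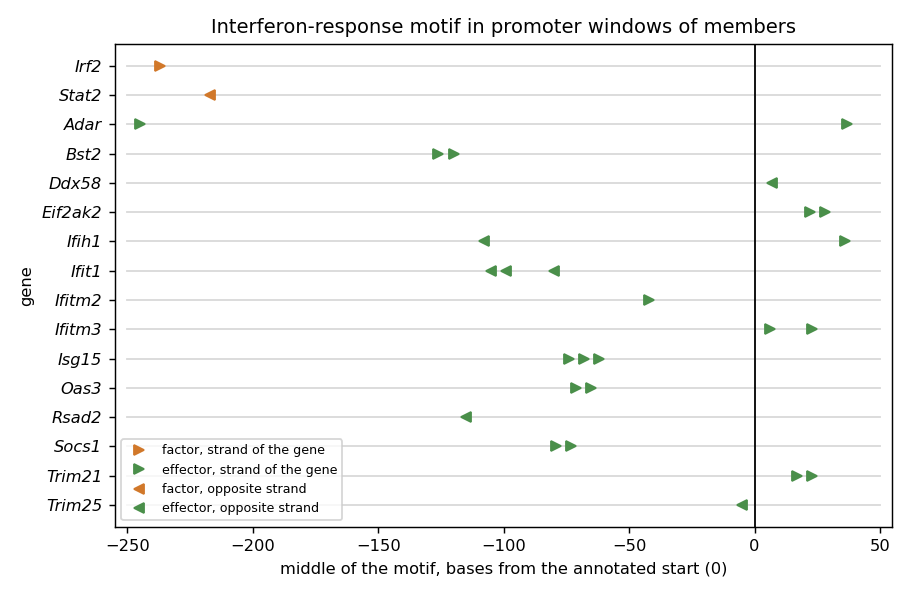
Position of each GAAANNGAA match in the promoter windows of the 16 members that hold it, as the distance in bases of the middle of the match from the annotated start (vertical line); triangles point right for the strand of the gene and left for the opposite strand, and colours separate factors from effectors. Pairs and triplets of matches stand close together in *Isg15*, *Ifit1*, *Oas3*, *Socs1*, *Bst2*, *Eif2ak2*, *Ifitm3* and *Trim21*. The matches of *Ddx58*, *Eif2ak2*, *Ifitm3* and *Trim21* lie after the start.

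A second motif, TTCNNNGAA, which STAT dimers are known to bind and which reads the same on both strands, was counted in the same windows after the data had been seen. It can overlap the first motif at its closing GAA. It was found for 13 of the 35 members (37.1%), against 8.45% of the genes in the tables and 8.30% of all windows. The receptor genes *Ifnar1* and *Ifnar2* held it, as did the factors *Irf1*, *Irf2* and *Irf8*, the last with 2 matches. The remaining 8 were effectors, namely *Adar*, *Bst2*, *Eif2ak2*, *Ifi35*, *Ifit2*, *Ifitm3*, *Isg20* and *Samhd1*. The matching windows of *Adar*, *Ifit2*, *Ifnar1* and *Isg20* belong to starts inside the gene.

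Because a long transcript yields more reads than a short one, levels were compared between genes per kilobase of the longest transcript, and each gene was placed as a percentile among the 11586 genes with a known length. The median gene stood at 366 normalized counts per kilobase. The members ran from 4.13 to 71062 per kilobase, and their median of 330 (percentile 47.5) was close to that of all genes. The 3 classes were placed differently within that range. The receptors had a median percentile of 89.8, the factors of 59.2 and the effectors of 38.3. All 4 receptors, 5 of 8 factors and 9 of 27 effectors lay above the median gene. Below percentile 25 there were 11 effectors, 1 factor and 0 receptors, and above percentile 75 there were 4 effectors, 2 factors and 4 receptors. The summed counts of the 39 genes made up 0.340% of the total, and the 5 genes with the highest counts held 68.8% of that sum.

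**Figure D2:**
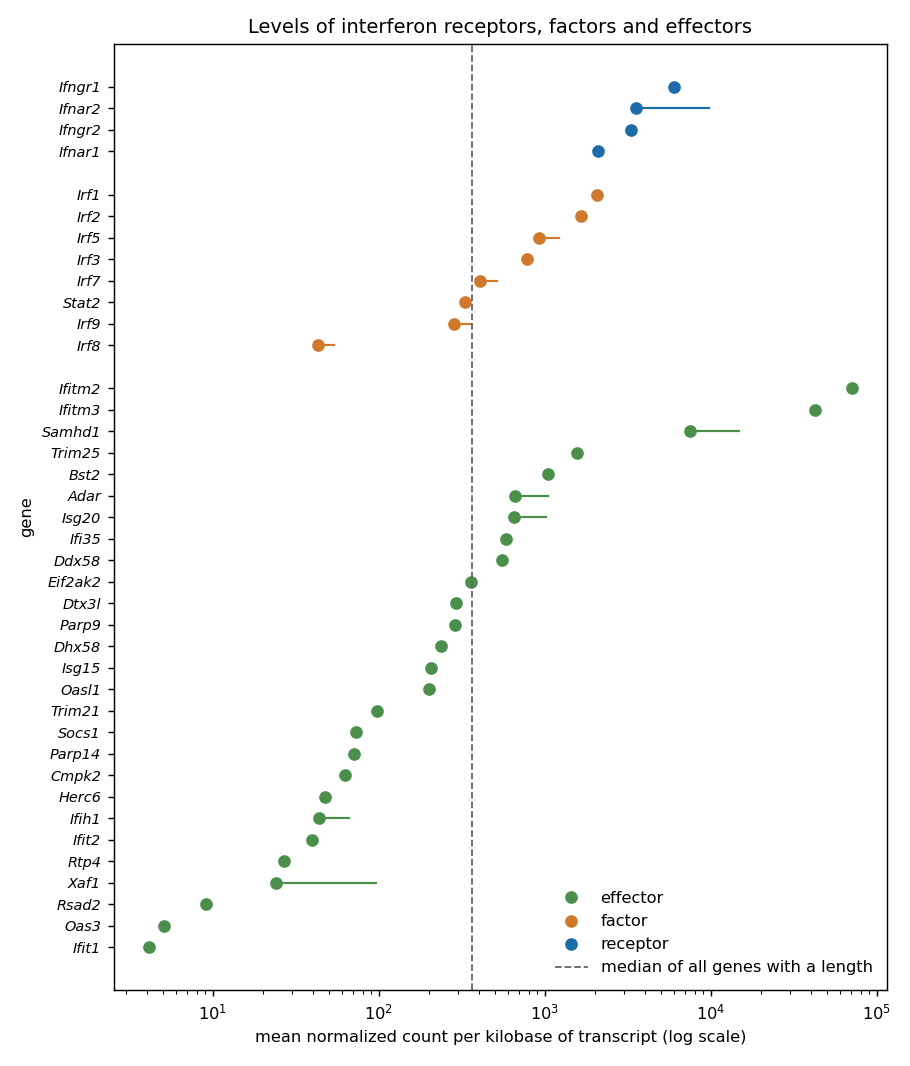
Authors' mean normalized count per kilobase of transcript (log axis) for each of the 39 genes, ordered by level within receptors, factors and effectors; the point uses the longest RefSeq-matched transcript, the line runs to the value with the shortest, and the dashed line is the median of all genes with a length. The 4 receptors sit between 2088 and 5996 per kilobase, whereas the effectors spread from 4.13 for *Ifit1* to 71062 for *Ifitm2*.

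The interferon receptor chains formed the most even class. *Ifngr1*, the ligand-binding chain of the interferon gamma receptor, had a mean normalized count of 12663, or 5996 per kilobase (percentile 94.3), the highest of the 4. *Ifngr2*, its signalling partner, had a count of 12315 and 3321 per kilobase (percentile 89.5), so that the first chain stood 1.81-fold above the second. Both chains of the interferon gamma receptor were thus among the better-covered genes of these cells. *Ifnar2*, the type I interferon chain with the stronger hold on its ligand, had a count of 10806 and 3546 per kilobase (percentile 90.1). *Ifnar1*, the other type I chain, had a count of 8163 and 2088 per kilobase (percentile 84.1), the lowest of the class. *Ifnar2* is also made as a short transcript of 1099 bases, against 3047 for the longest, and its level relative to *Ifnar1* was 1.70-fold with the longest and 4.71-fold with the shortest transcript. The order of *Ifnar2* and *Ifngr1* turns with that choice. The gene model *Gm21970* covers 9.46% of the exon bases of *Ifnar2* on the same strand. *Ifnar2*, *Ifnar1* and *Ifngr2* lie together on chromosome 16 from 91372783 to 91564007, a span of 191 kb, while *Ifngr1* lies on chromosome 10 from 19591949 to 19610229. With the longest transcripts the 3 clustered genes lay within 1.70-fold of each other per kilobase.

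Among the factors, *Irf1* and *Irf2*, an activator and a repressor that compete for the same element, stood highest. *Irf1*, on chromosome 11 from 53770014 to 53778374, had a mean normalized count of 4412 and 2064 per kilobase (percentile 83.9). *Irf2* had a count of 4108 and 1645 per kilobase (percentile 80.4), and the ratio of *Irf1* to *Irf2* was 1.25. Next came 2 factors that act below pathogen sensors, *Irf5* and *Irf3*. *Irf5*, best known for inflammatory cytokine genes, had a count of 2060 and 919 per kilobase (percentile 69.7), and 14.1% of its exon bases lie opposite *Tnpo3*. *Irf3*, which is present before stimulation in most cells and activated by phosphorylation, had a count of 1582 and 779 per kilobase (percentile 66.4). *Irf7*, which amplifies type I interferon production and is itself an interferon-stimulated gene, was lower, with a count of 908 and 406 per kilobase (percentile 52.0). It lies on chromosome 7 from 141263183 to 141266499.

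*Stat2* and *Irf9* encode partners in the complex that binds the GAAA element. *Stat2* had a mean normalized count of 1449 and 330 per kilobase (percentile 47.5), and *Irf9*, the DNA-binding subunit, a count of 844 and 285 per kilobase (percentile 44.5). Per kilobase both lay just below the median gene, and with the shortest transcripts *Irf9* was the higher, at 360.2 per kilobase. With no correction for length *Stat2* lay above the median gene, at percentile 59.3, and *Irf9* below it, at 48.7. *Irf8*, a factor that directs monocyte and dendritic cell fates and is normally low in mature neutrophils, was the lowest of the factors. Its count was 122, or 42.8 per kilobase (percentile 16.7), which is 48.2-fold below *Irf1*.

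**Figure D3:**
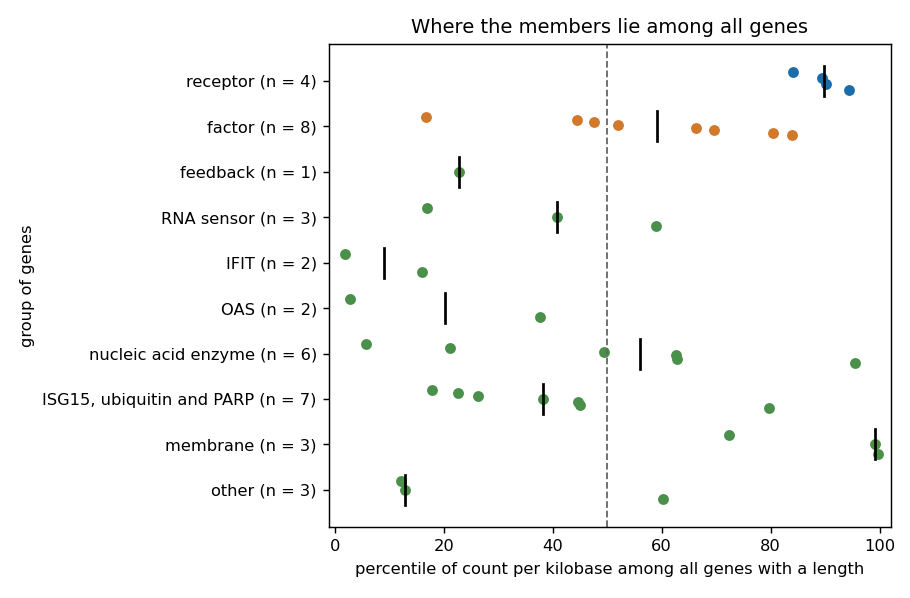
Percentile of each member's count per kilobase among all genes with a length, one point per gene, by class and by subgroup of effectors, with the median of each group as a black bar and the dashed line at the median gene. The receptors lie between percentiles 84.1 and 94.3, and the membrane effectors between 72.3 and 99.6, while both IFIT genes and both OAS genes lie below the median gene.

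The effectors covered almost the whole range of expression. The membrane group, whose proteins hinder the entry or the release of enveloped viruses, stood highest. *Ifitm2*, which restricts virus entry at endosomes, had a mean normalized count of 46546 and 71062 per kilobase (percentile 99.6). *Ifitm3*, its close relative, had a count of 28827 and 42518 per kilobase (percentile 99.2). The ratio of *Ifitm2* to *Ifitm3* was 1.67, but the annotation places a further gene model, *Gm45717*, over 40.9% of the exon bases of *Ifitm2*, and 34.9% of the 100-base stretches of its transcript occur in other genes. How far this moves the count of *Ifitm2* was not tested. *Bst2*, or tetherin, which holds budding virus at the cell surface, had a count of 829 and 1046 per kilobase (percentile 72.3). It was 40.6-fold below *Ifitm3*.

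Genes for enzymes that act on RNA or nucleotides were spread widely. *Samhd1*, which breaks down deoxynucleotides and restricts retroviruses, had a mean normalized count of 29420 and 7494 per kilobase (percentile 95.4), behind only the IFITM genes among the members. With its shortest transcript it had 14739 per kilobase. *Adar*, the RNA adenosine deaminase, had a count of 3908 and 661 per kilobase (percentile 62.8), and *Isg20*, an exonuclease, a count of 713 and 656 per kilobase (percentile 62.6). With the shortest transcripts *Adar* had 1041 and *Isg20* 1023 per kilobase. *Adar* shares 16.8% of its exon bases with *Chrnb2* on the opposite strand, and whether the counting used strand is not given in the sources used here. *Eif2ak2*, which encodes the double-stranded RNA kinase PKR, had a count of 1542 and 358 per kilobase (percentile 49.3), at about the level of the median gene. The remaining pair was low. *Cmpk2*, a mitochondrial nucleotide kinase, had a count of 200.2 and 62.6 per kilobase (percentile 21.1). *Rsad2*, or viperin, which makes a chain-terminating nucleotide, had a count of 34.6 and 9.15 per kilobase (percentile 5.67). *Cmpk2* and *Rsad2* are neighbours on chromosome 12, between 26442743 and 26479837, yet stood 6.84-fold apart.

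The sensors of viral RNA stood at unlike levels. *Ddx58*, which encodes RIG-I, had a mean normalized count of 2129 and 550 per kilobase (percentile 59.0). *Dhx58*, or LGP2, a regulator of the other sensors, had a count of 571 and 237 per kilobase (percentile 40.8). *Ifih1*, or MDA5, which prefers long double-stranded RNA, had a count of 238 and 43.5 per kilobase (percentile 16.9). *Ddx58* thus exceeded *Ifih1* by 12.6-fold with the longest transcripts and by 8.35-fold with the shortest.

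In the group of ISG15, ubiquitin ligases and PARP proteins, *Trim25* stood apart. This ligase, which activates RIG-I, had a mean normalized count of 8693 and 1555 per kilobase (percentile 79.7), 16.0-fold above *Trim21*, the intracellular antibody receptor, at 271 and 97.0 per kilobase (percentile 26.4). *Isg15*, the ubiquitin-like modifier, had a count of only 157 but, with a transcript of 756 bases, 208 per kilobase (percentile 38.3). *Herc6*, the main ligase that attaches ISG15 in mice, had a count of 227 and 47.6 per kilobase (percentile 17.9), and 20.9% of the 100-base stretches of its transcript are shared with the gene model *Gm45193*. The ligase was therefore 4.36-fold lower than its substrate per kilobase.

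*Dtx3l* and *Parp9* encode partners of one complex and are transcribed head to head from a shared region of chromosome 16. Their levels were nearly equal, with a mean normalized count of 1550 and 292 per kilobase for *Dtx3l* (percentile 45.0) and of 1022 and 288 per kilobase for *Parp9* (percentile 44.7), a ratio of 1.01. The annotation gives them 458 exon bases in common on opposite strands, 8.0% of those of *Dtx3l* and 9.40% of those of *Parp9*. *Parp14*, the next gene in the same 141 kb, encodes another ADP-ribosyl transferase and was 4.12-fold lower than *Dtx3l*, with a count of 526 and 70.9 per kilobase (percentile 22.6).

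The IFIT and OAS genes all lay below the median gene. *Ifit1*, which binds viral RNA without a mammalian cap, had a mean normalized count of 11.0 and 4.13 per kilobase (percentile 1.94), the lowest of the 39 genes. *Ifit2*, in the same cluster on chromosome 19, had a count of 152 and 39.8 per kilobase (percentile 16.0), 9.65-fold higher. *Oas3*, which makes the oligoadenylate that activates RNase L, had a count of 24.2 and 5.12 per kilobase (percentile 2.81). *Isg15* was 50.3-fold above *Ifit1*. *Oasl1*, an OAS-like protein that limits the translation of *Irf7* mRNA, had a count of 440 and 202 per kilobase (percentile 37.7), 39.3-fold above *Oas3*.

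*Socs1*, a feedback inhibitor of Janus kinases, had a mean normalized count of 211 and 72.7 per kilobase (percentile 22.9). *Socs3*, of the same family but not a member, had 4402 per kilobase (percentile 92.1). *Ifi35*, an interferon-induced leucine zipper protein, was above *Socs1*, with a count of 800.3 and 588 per kilobase (percentile 60.3). An antisense gene model, *Gm11626*, covers 16.8% of the exon bases of *Ifi35*. *Rtp4*, known as an inducible chaperone of membrane receptors, had a count of 42.2 and 26.8 per kilobase (percentile 12.8), and 13.9% of its exon bases are shared with the gene model *Gm45338*. *Xaf1*, a proapoptotic interferon target, had a count of 62.6 and 24.1 per kilobase (percentile 12.1), but 96.1 per kilobase with its shortest transcript of 651 bases. In all, 5 of the 39 genes had a mean normalized count under 100, namely *Ifit1*, *Oas3*, *Rsad2*, *Rtp4* and *Xaf1*, against 21.2% of all genes in the tables.

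Other genes of the pathway, from a list of 55 that are not members, gave a similar spread. Of these, 46 were in the tables, and 23 of the 45 with a known length lay above the median gene. The highest were *Ifitm1*, *Ifitm6* and *Ptpn6*, with 149818, 68505 and 20780 normalized counts per kilobase. *Ifitm1* and *Ifitm6* belong to the same gene family as *Ifitm2*, and *Ptpn6* encodes the phosphatase SHP-1, which restrains cytokine receptors. The lowest were *Ifi204*, *Oas1a* and *Ifit1bl1*, at 4.27, 7.39 and 11.5 per kilobase. The kinases that serve the receptors were all present, with *Jak1* at 2975, *Jak2* at 1605 and *Tyk2* at 679 per kilobase. Among those not analysed here were *Ifnb1*, *Ifng*, *Ifna2*, *Ifna4*, *Mx1*, *Mx2*, *Oas1g* and *Ifit3b*.

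The labelled cell type was checked against marker genes. All 13 neutrophil markers were in the tables, with mean normalized counts from 11373 for *Ly6g* to 1290830 for *S100a9*, and together they took 8.44% of all counts. Of the monocyte and macrophage markers all 6 were present, from 90.9 for *Mrc1* to 26480 for *Ly6c2*. Of the mast cell or basophil markers 3 of 4 were present, with *Cpa3* at 26296, *Mcpt8* at 2802 and *Kit* at 1075. The means of *Ly6c2* and *Cpa3* were above that of *Ly6g*, so these markers do not show a pure neutrophil population. The neutrophil list was not divided by stage of maturation. Of the B cell and T cell markers 1 of 4 each was present. None of the 4 markers of plasmacytoid dendritic cells, the specialised producers of type I interferon, and none of the 5 erythroid markers was among the genes analysed here. In bulk RNA, fewer cells of a type and less RNA per cell cannot be told apart, and the part that cells of other types have in the levels given above was not tested.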

How the data were processed

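RNA of 10 libraries in 4 groups was sequenced on polyA-selected material, 2 vimentin positive and 3 vimentin negative replicates, each with and without LPS. According to the methods and processing notes, reads were trimmed with Cutadapt 4.4, then aligned and quantified on mm10 with STAR 2.7.10b, and the authors normalized the counts with DESeq2 1.26.0 in a model with covariates from RUVSeq. The deposited signal per gene is the authors' mean normalized count over the libraries (baseMean), identical for all 13091 genes in the 4 tables. The gene annotation, the use of strand and any row filter are not given in the sources used here. The 9 other deposited columns hold the authors' comparisons (fold changes, standard errors, test statistics, p-values and calls) and were not used. Tests of genotype and LPS had been planned only for counts per library, which these tables do not give, so none was run. Labels alone set the groups.

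Means were divided by transcript length with Python 3.11.15. Lengths came from GENCODE M21 transcripts cross-referenced to RefSeq, since the RefSeq gene table holds no transcript lengths, and 11586 genes (88.5%) had one. Percentiles count the genes below, with ties at their middle. Positions and promoter windows came from RefSeq on GRCm38.p6, and overlaps from GENCODE. The last 30 bases of 42 of the 46 windows of the listed genes lay within a GENCODE transcript of that gene. Shared stretches are 100-base words of the longest transcript found in a transcript of another gene. The motif search and the percentile were tested on simulated data. All members found were named, and of the other pathway genes the 3 highest and 3 lowest. Kinases, *Socs3* and gene models that overlap members were added after their values were seen. Members and lists were chosen with earlier results of these data known. Alternatives were the shortest transcript, no correction for length (among all genes and, added later, among those with a length), genes with a mean of at least 100 only, a motif with 1 further A, and windows ending at the start. Figures used matplotlib 3.10.9.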

Additional observations from a re-analysis of the deposited data

How the results depend on the processing

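The tables give 1 mean per gene, taken as that of all libraries, so no spread between replicates bounds these values and no library could be left out. No paired analysis was possible because the tables hold no value per library. The order of the classes, receptors above factors above effectors, was the same in the 4 alternatives tried. With the shortest transcript the median percentiles were 90.5 for receptors, 58.9 for factors, 36.0 for effectors and 46.7 for all members. With no correction for length, ranked among all 13091 genes of the tables, they were 93.1, 60.2, 40.8 and 48.7. Ranked among only the 11586 genes with a length, an alternative chosen after seeing the data, they were 92.3, 56.3, 35.4 and 43.9. Among genes with a mean normalized count of at least 100 they were 87.9, 51.5, 34.5 and 47.1, the last over 34 members. The percentile of single members moved by over 10 points for 1 of 39 members with the shortest transcript (*Xaf1*, by 12.7), for 12 of 39 with no correction among all genes, and for 7 of 39 with no correction among genes with a length. *Bst2* fell by 23.9 and 28.8 points in these last 2, and 7 members changed sides of the median gene in each, *Bst2*, *Dtx3l*, *Eif2ak2*, *Ifi35*, *Isg20* and *Stat2* in both, *Parp9* among all genes and *Irf7* among genes with a length. Restricted to genes with a mean of at least 100 it moved by over 10 points for 14 of 34, all downwards, since low genes leave the reference. The motif was held by 14 members in the form with 1 further A and by 12 in the 250 bases before the start, against 16. The alternatives planned for counts per library (another normalization, a filter, a replicate term, leaving out each replicate) were not run.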

Other observations

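Among the genes of the pathway outside the list, *Ifit1bl2*, a mouse relative of *Ifit1* in the same gene family, had a mean normalized count of 463, or 137 per kilobase (percentile 31.2). This was 33.3-fold above *Ifit1*, a ratio that rests on the low mean normalized count of *Ifit1*, 11.0. Of the 100-base stretches of the *Ifit1* transcript, 3.29% occur in *Ifit1bl2*. The share of the *Ifit1bl2* transcript found in other genes was not measured, and whether shared sequence affects either count was not tested. The guanylate-binding and immunity-related GTPases, known targets of interferon gamma, were low as well, with *Gbp2* at 72.5, *Gbp7* at 54.7, *Gbp3* at 16.2, *Irgm1* at 132, *Irgm2* at 49.0, *Igtp* at 109 and *Ifi47* at 107 per kilobase. The nuclear body genes *Sp100* and *Sp110* stood at percentiles 92.9 and 91.3. *Ifi27* had 3070 and *Ifi27l2a* 1540 per kilobase. All genes of this paragraph were picked with their values in view.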
